A study of Mus musculus with 6 samples.

Results

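Neurog1, Neurod1, Nhlh1, Insm1, Sox11, Hes6, Kit, Lgr5 and Ezh2 are genes used to follow globose basal cells, the cycling progenitors of the olfactory epithelium, and their daughters on the way to becoming neurons. These 9 genes were taken by symbol from a table of 31319 genes, with lists of the factors that work with them. All 9 passed the filter on low counts and are described here in the main olfactory epithelium (MOE) of male C57BL/6 mice aged 5 months. The genotype of 3 libraries was given as miR-200b/a KD (KD-1 to KD-3), a knockdown of 2 microRNAs, and that of the other 3 as NC (NC-1 to NC-3), which the column headers of the counts call controls. The sources used here do not say how the knockdown was made, what the NC mice received or whether each library came from its own mouse. The p-values therefore measure only the spread among these 6 samples, and part of it may be technical. The comparison of KD with NC asks which transcripts differ when these microRNAs are lowered, here among genes of the progenitors.

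Globose basal cells divide throughout life and replace olfactory sensory neurons. In the textbook order, Neurog1 and Neurod1 mark the immediate neuronal precursors, and Nhlh1, Insm1 and Sox11 accompany the last divisions and the exit into the immature neuron, which expresses Gap43 and later Omp. Kit and Lgr5 are surface receptors that label subsets of globose basal cells, Hes6 is a factor that counters the Notch effector Hes1, and Ezh2 is the enzyme of Polycomb repressive complex 2. Kit, Lgr5, Hes6 and Ezh2 are also active in other cells of a nasal preparation, Kit in mast cells and Ezh2 in dividing cells of many kinds.

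The knocked-down microRNAs recognise their targets through bases 2 to 8, the seed, which is shown in capitals because a target site is its complement. Both mature sequences are from RefSeq on GRCm38.p6, on the minus strand of chromosome 4 (miR-200b-3p at chr4:156055685-156055706, miR-200a-3p at chr4:156054911-156054932).
miR-200b-3p: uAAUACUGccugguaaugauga
miR-200a-3p: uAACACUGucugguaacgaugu
The longest annotated 3′ UTR of each of the 9 genes (GENCODE M21, GRCm38) was searched for CAGUAUU and CAGUGUU, the complements of these seeds. There was 1 match among the 9 genes, to miR-200a in Sox11. It begins at base 5892 of a 3′ UTR of 6957 bases and is followed by an A. It is shown here with 9 bases on each side and with the match in capitals (minus strand, chr12:27335314-27335338).
Sox11 site: cuuggaaugCAGUGUUaaugcucag
Of the 461 genes whose 3′ UTR has a length like that of Sox11 (0.8 to 1.25 times), 63.3% hold a miR-200a match and 47.5% a miR-200b match. The other 8 genes have 3′ UTRs of 402 bases (Ezh2) to 2177 bases (Kit) with 0 matches to either seed. Among genes with a 3′ UTR of like length, 7.45% for Ezh2 and 42% for Kit hold at least 1. A match of letters is not a measured site.

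Total counts per library ran from 15704791 to 17618540. The libraries differed widely in olfactory neuron RNA, and KD-2 stood apart. Omp, the marker of mature olfactory neurons, had 149 counts in KD-2, against 24302 in KD-1, 33430 in KD-3 and 61926 to 69388 in NC. Cyp2g1, an enzyme of the supporting cells, had 385 counts in KD-2 and 26440 to 59865 in the others, so KD-2 was nearly without Omp and Cyp2g1. Values below are counts per 1000000, scaled by TMM (CPM), unless they are called counts. Supporting cell genes as a list were lowered less in KD-2 than Cyp2g1 was. The summed level of 12 of them was 5440 CPM in KD-2, 8470 in KD-1, 11000 in KD-3 and 11200 to 13200 in NC. Their median log2 level in KD-2 was -1.5 relative to the NC mean. For the 9 genes the fold changes are given with and without KD-2. In bulk RNA, fewer cells of a type and less RNA per cell cannot be told apart.

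Neurog1, the basic helix-loop-helix (bHLH) factor that commits progenitors to the neuronal fate (ENSMUSG00000048904, chr13:56250478-56252163, minus strand), stood at 0.584, 0.0766 and 1.87 CPM in KD-1 to KD-3 and at 2.71, 1.89 and 1.79 in NC-1 to NC-3. KD-3 lay inside the NC range, KD-1 below it and KD-2 lowest, with 1 count (95% exact Poisson interval 0.0253 to 5.57 counts, for counting error alone, as for all such intervals here). Neurog1 was the least counted of the 9, with 10, 1 and 34 counts against 44, 37 and 32, so its values carry the largest counting error. Its KD mean of 0.845 ± 0.927 CPM compared with an NC mean of 2.13 ± 0.506 (SD, n = 3 per group, as for all means below). The fitted log2 fold change was -1.29 with an SE of 0.855 (edgeR quasi-likelihood test, adjusted p = 0.392).

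Neurod1, the bHLH factor that follows Neurog1 in the lineage (ENSMUSG00000034701, chr2:79452521-79456751, minus strand), stood at 3.50, 0 and 3.03 CPM in KD-1 to KD-3 and at 10.8, 4.14 and 3.87 in NC-1 to NC-3. All KD values lay below all NC values, and NC-1 lay far above the other NC libraries. KD-2 had 0 counts, with an upper bound of the 95% exact Poisson interval of 3.69 counts or 0.282 CPM. Means were 2.18 ± 1.90 against 6.27 ± 3.92 CPM, or -1.50 as log2 fold change (edgeR SE 1.16, adjusted p = 0.447). The gene model shares its strand and part of its span with Cerkl, and Gm26755 overlaps it on the opposite strand. Whether exons overlap was not examined, so some reads there may not be told apart.

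Nhlh1, a bHLH factor of newborn neurons (ENSMUSG00000051251, chr1:172052292-172057573, minus strand), stood at 10.6, 0.0766 and 17.2 CPM in the KD libraries and at 30.1, 22.8 and 19.0 in the NC libraries. The groups did not overlap, although KD-3 came close to NC-3. KD-2 again had 1 count. Means were 9.30 ± 8.64 against 24.0 ± 5.64 CPM, or -1.36 as log2 fold change (edgeR SE 1.15, adjusted p = 0.482).

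Insm1, a zinc-finger repressor that moves progenitors from surface to basal divisions (ENSMUSG00000068154, chr2:146221921-146225020, plus strand), stood at 11.4, 0.383 and 17.5 CPM in KD and at 25.7, 23.7 and 20.1 in NC. Here too all KD values lay below all NC values, with KD-2 at 5 counts (1.62 to 11.7). Means were 9.77 ± 8.69 against 23.1 ± 2.86 CPM, or -1.24 as log2 fold change (edgeR SE 0.992, adjusted p = 0.463).

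Sox11, an HMG-box factor of immature neurons (ENSMUSG00000063632, chr12:27334264-27342574, minus strand) and the gene with the miR-200a match shown above, stood at 25.5, 0.919 and 35.7 CPM in KD and at 63.7, 43.6 and 33.0 in NC. KD-3 lay between NC-2 and NC-3, so the groups overlapped. KD-2 had 12 counts (6.2 to 21). Means were 20.7 ± 17.9 against 46.8 ± 15.6 CPM, or -1.17 as log2 fold change (edgeR SE 1.01, adjusted p = 0.492). Sox11 had the smallest fold change of these 5 factors.

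**Figure D1:**
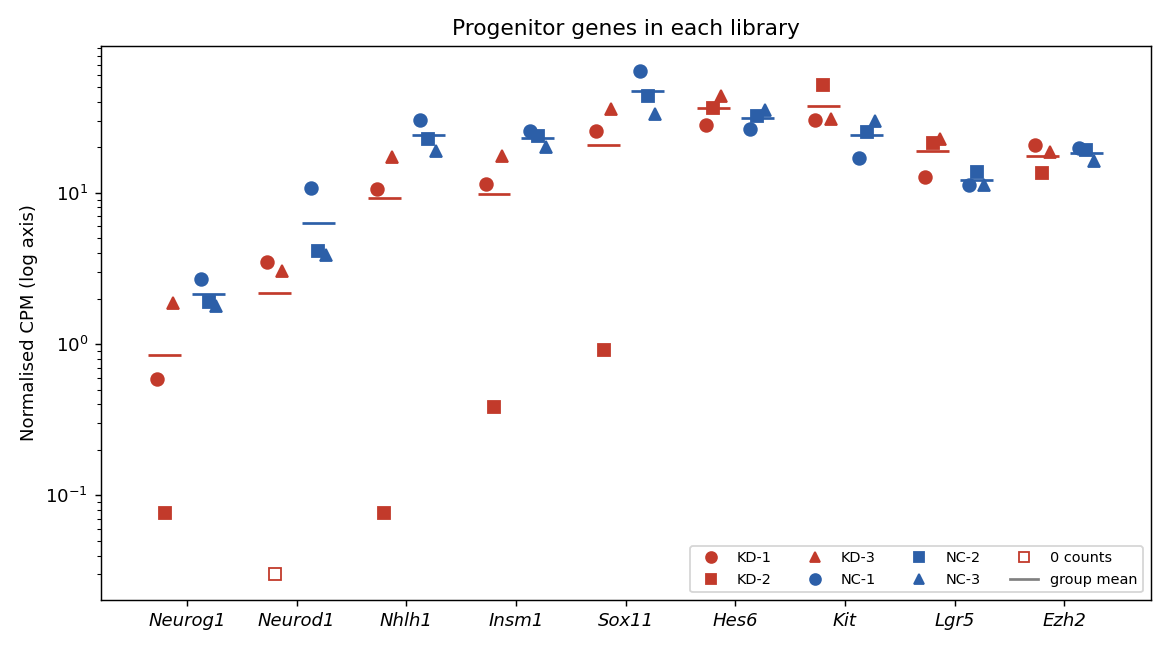
Normalised counts per 1000000 (CPM, log axis) of the 9 genes in each library, KD in red and NC in blue, with the group means as lines and open symbols at the lower edge where no read was counted. The KD-2 point is well under all 5 others for Neurog1, Neurod1, Nhlh1, Insm1 and Sox11, and inside or above their range for Hes6, Kit and Lgr5, and Ezh2 is at 13.6 there.

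The size of these 5 differences came in large part from KD-2. Without it the log2 fold changes were -0.76 for Neurog1, -0.91 for Neurod1, -0.76 for Nhlh1, -0.65 for Insm1 and -0.59 for Sox11, with adjusted p from 0.366 to 0.574. With KD-2 and NC-1 both left out they were -0.55, -0.27, -0.56, -0.57 and -0.30 in the same order. The mean of KD-1 and KD-3 was 0.576 of the NC mean for Neurog1, 0.521 for Neurod1, 0.58 for Nhlh1, 0.625 for Insm1 and 0.654 for Sox11. All 5 were thus lower than NC in mean without KD-2 as well, by amounts that did not pass the test. When each library's mean level of 20 mature olfactory neuron genes entered the fit as covariate, the signs turned: the log2 fold changes were 0.16, 1.24, 0.82, 0.46 and 0.61, with adjusted p of 0.898 to 0.977.

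The level of the mature neuron genes moved with these 5 factors. The fold changes of 20 of 20 mature neuron genes were below 0 (median log2 -1.78, -1.20 without KD-2), and their summed level was 534 to 6910 CPM in KD and 11400 to 19000 in NC, with 0 of the 20 at 0 counts in KD-2. Relative to the NC mean, the median log2 level in KD-1 to KD-3 was -1.38, -6.07 and -1.02 for the mature neuron genes, -1.16, -3.22 and -0.45 for 20 immature neuron genes and -1.01, -5.53 and -0.39 for the 5 factors. In KD-1 and KD-3 the 5 factors thus lay less far below NC than the mature neuron genes did, and close to the immature neuron genes. The part of the neuron level in the result was not tested.

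**Figure D2:**
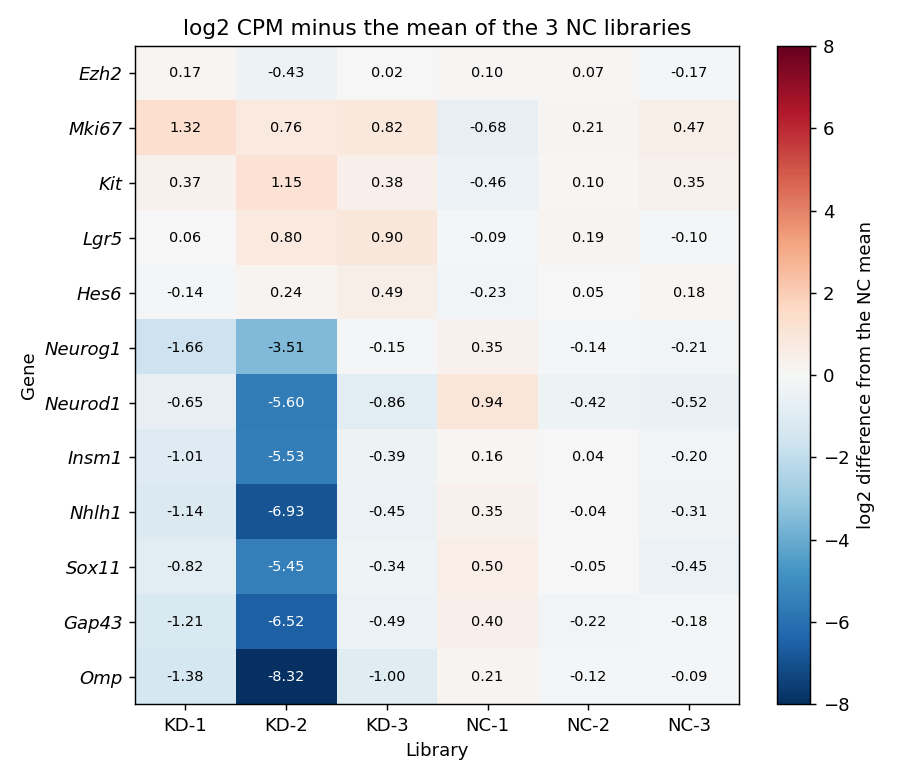
log2 CPM of the 9 genes and of Mki67, Gap43 and Omp in each library (columns) minus the mean of the 3 NC libraries, with the value printed in each cell. In KD-2 the values run from -3.51 for Neurog1 to -8.32 for Omp in the neuronal lineage. Ezh2, Mki67, Kit, Lgr5 and Hes6 lie between -0.43 and 1.15 there. A prior of about 2 counts was added before the log2. For Neurog1, Neurod1 and Nhlh1, with 1, 0 and 1 counts in KD-2, this prior limits how low the value can be.

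Hes6, a bHLH factor that promotes neuronal differentiation by countering Hes1 (ENSMUSG00000067071, chr1:91411483-91414038, minus strand), was the first of the 9 that did not follow the neuronal genes. It had 28.1, 36.6 and 43.5 CPM in KD and 26.3, 32.0 and 35.1 in NC. The groups overlapped, and KD-2 lay in the middle of the KD values with 478 counts. Means were 36.1 ± 7.71 against 31.1 ± 4.44 CPM (log2 fold change 0.21, SE 0.206, adjusted p = 0.537), and without KD-2 the fold change was 0.22.

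Kit, the receptor tyrosine kinase for stem cell factor (ENSMUSG00000005672, chr5:75574916-75656722, plus strand), stood at 30.3, 51.9 and 30.6 CPM in KD and at 17.0, 25.2 and 29.9 in NC. All KD values lay above all NC values by a small margin at NC-3, and KD-2 was the highest library. Scaled by library size alone the groups overlapped, with KD-1 at 29.5 and NC-3 at 31.3 CPM. Means were 37.6 ± 12.4 against 24.0 ± 6.53 CPM, or 0.64 as log2 fold change (edgeR SE 0.305, adjusted p = 0.298), which was 0.36 without KD-2 and 0.17 with NC-1 also left out.

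Mast cells, which depend on Kit, left few counts. Cpa3, a mast cell protease, had 11, 47 and 11 counts in KD and 6, 1 and 4 in NC. Tpsb2 had 4, 34 and 12 against 6, 1 and 3, and Cma1 had 6, 32 and 1 against 5, 4 and 5. KD-2 was thus the highest library for these proteases as for Kit. Of 10 mast cell markers 3 passed the filter (Cpa3, Hdc and Gata2) and Mrgprb1 was at 0 in 4 libraries. The summed level of the list was 362 to 501 CPM in KD and 88 to 326 in NC. Most of it was Hdc (392 ± 71.4 against 142 ± 116). Of the 3 that passed the filter, Cpa3 and Gata2 were highest in KD-2 (3.6 and 74.1 CPM). Hdc was highest in KD-3, at 450 CPM against 414 in KD-2. Melanocytes, which also carry Kit, were represented by 2 of 7 markers past the filter and a summed level of 9.65 to 10.6 against 6.17 to 12 CPM, with Dct, Tyr and Tyrp1 at 0 to 2 counts in every library. The part of these cells in the Kit level was not tested.

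The other genes of Kit signalling had 13 of 17 fold changes above 0, 4 below and 0 past the threshold. Their median on the log2 scale was 0.20, against 0.01 over all 18444 tested genes. The ligand gene Kitl had means of 35.1 ± 10.5 CPM (KD) and 30.7 ± 8.10 (NC), with overlapping groups. The members with the smallest p were the adaptor genes Sh2b2 (45.7 ± 15.2 against 18.1 ± 4.07 CPM, log2 fold change 1.34, SE 0.294), Sh2b3 (38.1 ± 4.77 against 24.3 ± 3.61) and Grb2 (113 ± 14.2 against 82.1 ± 11.8). The groups did not overlap for any of these 3, and edgeR gave each an adjusted p of 0.276.

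Lgr5, the R-spondin receptor that marks Wnt-responsive stem cells (ENSMUSG00000020140, chr10:115450311-115587780, minus strand), stood at 12.7, 21.2 and 22.8 CPM in KD and at 11.3, 13.8 and 11.3 in NC. KD-2 and KD-3 lay above all NC libraries and KD-1 inside their range. Means were 18.9 ± 5.44 against 12.2 ± 1.45 CPM, or 0.63 as log2 fold change (edgeR SE 0.262, adjusted p = 0.279), and 0.57 without KD-2. Of the 9 genes it had the smallest p (unadjusted 0.051). It stayed between 0.48 and 0.85 when any 1 library was left out, was 0.51 in the fit with the mature neuron covariate, and passed in none of these fits. A930009A15Rik overlaps it on the opposite strand, and the sources used here do not say whether counting used strand.

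In the R-spondin pathway around Lgr5, 12 of 14 genes were tested, of which 8 were above 0 and 4 below and 0 passed the threshold, and the median was 0.23 on the log2 scale. The related receptor Lgr4 was at 36.1 ± 7.32 CPM in KD against 51.9 ± 9.64 in NC (log2 fold change -0.52, -0.34 without KD-2). Lgr6 was at 26.9, 9.04 and 32.6 against 17.1, 18.9 and 18.9 CPM, with KD-2 lowest and the other KD libraries above NC (log2 fold change 0.32, 0.72 without KD-2). Axin2, a direct target gene of Wnt signalling, stood at 24.4 ± 3.16 against 24.5 ± 1.07 CPM, a log2 fold change near 0 with an SE of 0.148. The pathway genes with the smallest p were Smoc2 (54.4 ± 12.3 against 27.5 ± 5.60 CPM, log2 fold change 0.98, SE 0.233), Tcf7 (24.1 ± 3.03 against 15.5 ± 3.37) and Lef1 (11.3 ± 2.23 against 6.96 ± 1.14), all with groups that did not overlap and an edgeR adjusted p of 0.276. Smoc2 encodes a matrix protein of stem cell niches, and Tcf7 and Lef1 are nuclear partners of beta-catenin that are also high in T cells. The summed level of 10 T cell and cytotoxic markers was 94.4 to 214 CPM in KD and 15.5 to 83.0 in NC. All 10 were above 0, with a median log2 fold change of 1.1 (0.61 without NC-1). The part of T cells in Tcf7 and Lef1 was not tested.

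Ezh2, the histone H3 lysine methyltransferase of Polycomb repressive complex 2 (ENSMUSG00000029687, chr6:47530139-47595341, minus strand), stood at 20.6, 13.6 and 18.6 CPM in KD and at 19.7, 19.3 and 16.3 in NC. KD-2 was lowest with 177 counts (152 to 205), KD-1 highest, and the groups overlapped. Means were 17.6 ± 3.63 against 18.4 ± 1.88 CPM, or -0.07 as log2 fold change (edgeR SE 0.206, adjusted p = 0.853), which was 0.11 without KD-2. Gm26625 and Gm44282 overlap it on the opposite strand.

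Ezh2 is usually high where cells divide, and the genes of division had another pattern here. Mki67, a protein of dividing cells, stood at 77.3, 52.3 and 54.2 CPM in KD and at 19.1, 35.6 and 42.8 in NC, all KD values above all NC values (log2 fold change 0.91, SE 0.328, adjusted p = 0.276; 1.04 without KD-2). Of 24 proliferation genes 24 were above 0 and 0 passed the threshold, where 9329 of all 18444 tested genes were above 0. The median of the 24 was 0.79. It was 0.94 without KD-2, 0.6 without NC-1 and 0.7 without both. Markers of horizontal basal cells, the reserve stem cells of the epithelium, moved with the proliferation genes. Of these 12 markers 11 were above 0 and 0 passed, with a median of 1.16 (0.86 without NC-1). Their summed level was 1110 to 1760 CPM in KD and 453 to 845 in NC, with 0 of the 12 at 0 in KD-2. Of 10 markers of respiratory ciliated and secretory cells 9 were tested, with 7 above 0, 2 below and 0 past the threshold. Their summed level was 19100 to 29100 CPM in KD and 7740 to 14600 in NC. The part of horizontal basal cells in the proliferation genes, and that of respiratory tissue in the basal cell markers, was not tested. The log2 ratio of Ezh2 to Mki67 counts was -1.90, -1.95 and -1.54 in KD and 0.04, -0.88 and -1.39 in NC, so all 3 KD values were under all 3 NC values. The difference of -1.05 had p = 0.1 in an exact permutation test (two-sided, 3 against 3, the smallest p this design allows; adjusted over 14 ratios, 0.467). Without KD-2 it was -0.98, without NC-1 -0.66, and without both -0.59. Dividing lymphocytes also express Ezh2. The summed level of 10 B and plasma cell markers was 4910 to 8630 CPM in KD and 1380 to 6340 in NC. All 10 were above 0, with a median log2 fold change of 0.95 (0.43 without NC-1). NC-1 was lowest for these markers and for Mki67. The part of these cells in the ratio was not tested.

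The partners of Ezh2 in its complex gave no common direction. Of 11 genes of Polycomb repressive complex 2, 6 were above 0 and 5 below and 0 passed the threshold; their median log2 fold change was 0.04, and -0.11 with scaling by library size alone, a scaling that shifts the median of all genes from 0.01 to -0.14. The core subunit Eed had means of 35.5 ± 3.74 CPM (KD) and 34.6 ± 2.46 (NC), Suz12 at 58.5 ± 12.3 against 70.7 ± 11.7, and the paralogue Ezh1 at 78.5 ± 3.91 against 83.3 ± 2.75. The smallest p were found for the accessory subunit Jarid2 (41.0 ± 9.06 against 71.2 ± 21.7 CPM, log2 fold change -0.79, SE 0.273), for Epop (5.15 ± 0.998 against 2.76 ± 0.691) and for the histone-binding subunit Rbbp7 (117 ± 11.9 against 96.8 ± 4.40). The groups did not overlap for these 3 genes, and their edgeR adjusted p were 0.276, 0.276 and 0.316.

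**Figure D3:**
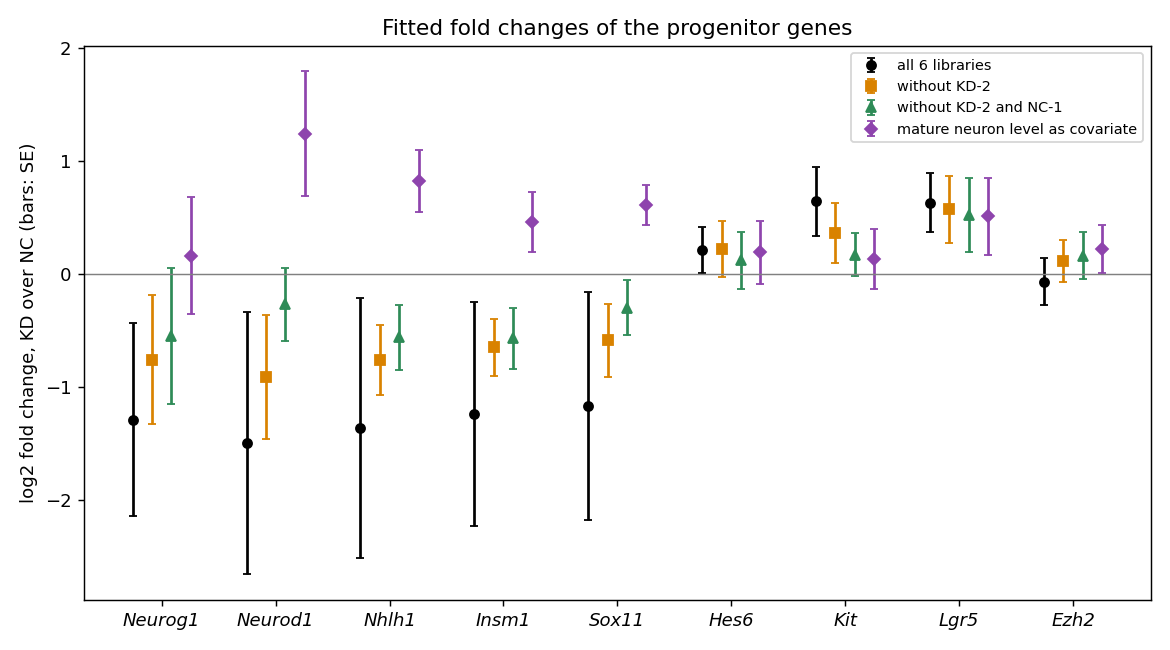
Fitted log2 fold changes of KD over NC for the 9 genes (points) with their standard errors (bars) over all 6 libraries, and in 3 other fits: KD-2 left out, KD-2 and NC-1 left out, and the mature neuron covariate. The values of Neurog1, Neurod1, Nhlh1, Insm1 and Sox11 lie below 0 in the first 3 fits and above 0 with the covariate. That covariate is lower in every KD library than in every NC library, so those values do not compare the groups at an equal neuron level. Lgr5 lies between 0.51 and 0.63 in all 4 fits.

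None of the 9 genes passed the threshold of the edgeR test (adjusted p from 0.279 to 0.853), as was the case for all tested genes: 0 of 18444, or 0%. At an unadjusted p under 0.05 there were 0 of the 9 genes, where 17.9% of all tested genes lay. DESeq2 called 0 of the 9, with adjusted p from 0.28 to 0.885, and 1.76% of the genes to which it gave an adjusted p. The groups did not overlap, with KD lower, for 3 of the 9 (Neurod1, Nhlh1 and Insm1) and for 18.6% of tested genes. They did not overlap, with KD higher, for Kit alone, and for 15.3% of tested genes. The same shares stand beside every other gene described here as not overlapping. In the authors' deposited table, the log2 fold changes of the 9 ran from -1.55 for Neurod1 to 0.62 for Kit, and the unadjusted p-values from 0.0613 for Lgr5 to 0.745 for Ezh2. The edgeR standard errors were 0.855 to 1.16 for the 5 lineage factors and 0.206 to 0.305 for the other 4 genes. Without KD-2 they were 0.253 (Insm1) to 0.573 (Neurog1) for the 5 and 0.185 (Ezh2) to 0.298 (Lgr5) for the other 4. Much of the wider scatter of the 5 factors thus came from KD-2.

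Between genes, levels can be compared only per length, here as CPM per 1000 bases of the union of annotated exons. In the NC libraries Hes6 was highest at 17.2 ± 2.45 (SD, n = 3), above Nhlh1 at 9.73 ± 2.29 with no overlap of their values. Nhlh1, Insm1 (7.47 ± 0.922) and Sox11 (5.63 ± 1.88) overlapped each with the next in order. Sox11 lay above Ezh2 (2.76 ± 0.281) without overlap. Ezh2, Kit (2.70 ± 0.733), Neurod1 (2.30 ± 1.44), Neurog1 (1.26 ± 0.3) and Lgr5 (1.19 ± 0.141) then followed with overlap between neighbours. In KD the mean order was Hes6 at 19.9 ± 4.27, Kit at 4.22 ± 1.39, Nhlh1 at 3.77 ± 3.51, Insm1 at 3.15 ± 2.80, Ezh2 at 2.63 ± 0.544, Sox11 at 2.49 ± 2.15, Lgr5 at 1.84 ± 0.53, Neurod1 at 0.798 ± 0.697 and Neurog1 at 0.501 ± 0.55. The second place of Kit rested on KD-2: in KD-1 Nhlh1 (4.31) and Insm1 (3.67) were above Kit (3.40), and in KD-3 Nhlh1 (6.98), Insm1 (5.65) and Sox11 (4.30) were above Kit (3.43).

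Ratios of counts within a library do not depend on scaling, and 14 were compared between the groups with an exact permutation test, for which p = 0.1 is the smallest possible. They were taken as log2 with 0.5 counts added to each gene, which sets the value where KD-2 has 0 to 5 counts. Of these ratios 0 had an adjusted p below 0.467. Along the lineage, the log2 ratio of Nhlh1 to Neurod1 was 1.59, 1.58 and 2.49 in KD and 1.48, 2.46 and 2.29 in NC, a difference of -0.18. Neurod1 to Gap43 was -2.24, -3.17 and -3.18 against -2.24, -3.01 and -3.14 (difference -0.07, p = 0.6 in the exact test), and Nhlh1 to Gap43 was -0.65, -1.58 and -0.69 against -0.77, -0.55 and -0.85. These 3 ratios overlapped widely between the groups, and that of Neurod1 to Gap43 varied by nearly as much between NC libraries as between KD libraries. KD-2 counts for Neurod1 and Nhlh1 are 0 and 1, so ratios between them there carry little information.

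For ratios to later markers of the lineage the size depended on single libraries. Sox11 to Gap43 was 0.61, 1.47 and 0.37 in KD and 0.31, 0.38 and -0.05 in NC (difference 0.60, exact permutation p = 0.2), and the difference was 0.27 without KD-2. Neurod1 to Omp was -8.65, -8.22 and -9.23 against -8.63, -9.67 and -9.80 (difference 0.66, exact permutation p = 0.3), and the difference was 0.42 without KD-2 and 1.03 without NC-1. For this last ratio the NC-1 value lay inside the KD range.

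Ratios across the split between neuronal factors and the other genes were most extreme in KD-2. Hes6 to Neurod1 was 2.99, 9.90 and 3.83 in KD and 1.28, 2.94 and 3.17 in NC, a difference of 3.11 (exact permutation p = 0.2) that was 0.95 without KD-2 (exact permutation p = 0.5). Insm1 to Neurod1 (difference 0.52) and Sox11 to Neurod1 (0.67) overlapped between groups, and were 0.06 and 0.19 without KD-2.

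**Figure D4:**
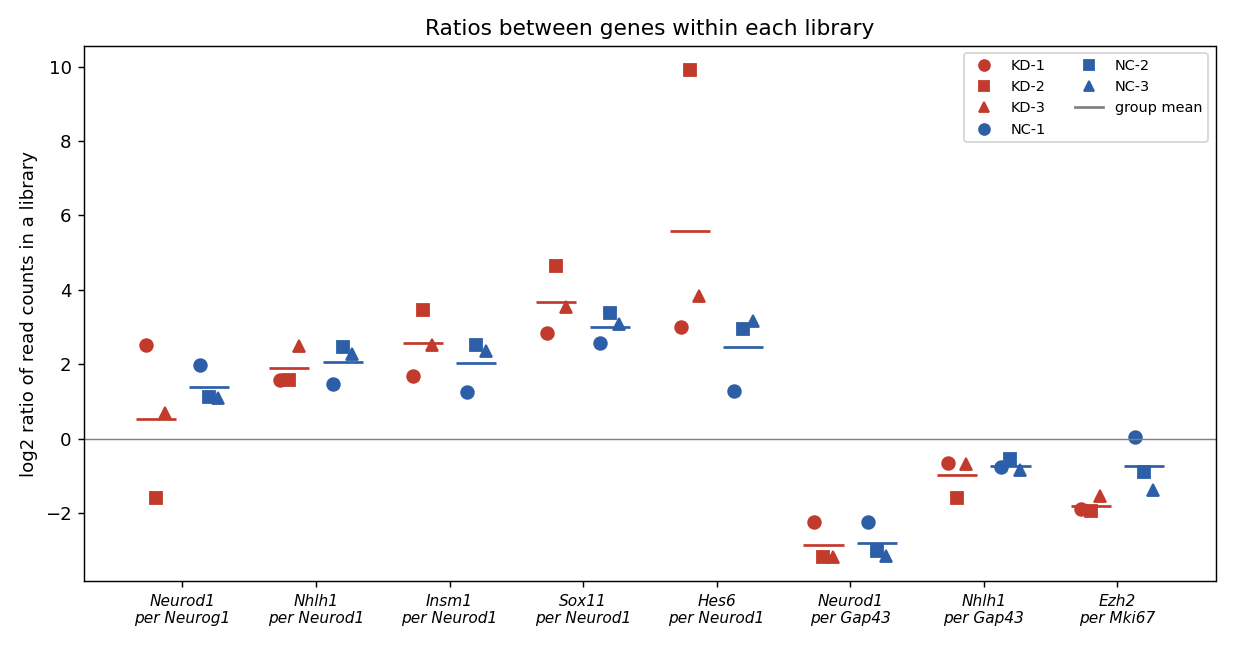
log2 ratio of read counts between pairs of genes in each library (0.5 counts added to each), KD in red and NC in blue, with lines for the group means. The ratios of Nhlh1 to Neurod1, Neurod1 to Gap43 and Nhlh1 to Gap43 overlap between groups, Hes6 to Neurod1 reaches 9.90 in KD-2, and Ezh2 to Mki67 is below every NC value in the KD libraries.

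Of 32 other transcription factors of the lineage, 27 were tested, with 11 above 0, 16 below and 0 past the threshold, and a median of -0.59 on the log2 scale (-0.21 without KD-2, -0.18 without NC-1 and 0.01 without both). Lhx2, which olfactory neuron progenitors need to mature, had 1128, 14 and 1928 counts in KD and 3701, 3441 and 3235 in NC. Ebf2, a factor of olfactory neuron precursors, had 1572, 14 and 2176 against 4775, 4490 and 2979, and Nhlh2, the paralogue of Nhlh1, had 40, 1 and 85 against 118, 133 and 75. KD-2 was thus near 0 for these 3 as for Nhlh1. Sox2 and Pax6, factors shared by basal and supporting cells, had 1656 and 711 counts in KD-2. Their means were 114 ± 14.7 against 87.4 ± 13.2 CPM for Sox2 and 52.7 ± 4.06 against 46.2 ± 6.70 for Pax6.

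Inhibitor of differentiation (Id) proteins bind the partners of bHLH factors such as Neurog1 and Neurod1 and keep them from DNA. Among the lineage factors the smallest p belonged to Id4, at 48.4, 11 and 32.7 CPM in KD and 148, 134 and 85.7 in NC (log2 fold change -2.0, SE 0.541, edgeR adjusted p = 0.276), and -1.57 without KD-2. Id1, Id2 and Id3 were on the other side of 0. Id3 stood at 72.2, 79.4 and 75.7 against 49.3, 55.7 and 62.1 CPM (log2 fold change 0.44, SE 0.138, adjusted p = 0.276). Id1 stood at 99.8, 89.8 and 78.5 against 35.9, 52.8 and 73.5 CPM (log2 fold change 0.73, SE 0.275, adjusted p = 0.276), and Id2 at 78.5, 98.6 and 81.6 against 44.2, 55.7 and 72.5 (0.59, SE 0.216, adjusted p = 0.276). For none of the 4 Id genes did the groups overlap, and none passed the test. Over all tested genes, 15.3% did not overlap with KD higher and 18.6% with KD lower. Id1 had 1172 of 15704791 counts in KD-2 and 1311 of 17042490 in NC-3, so its groups overlap with scaling by library size alone. The third by p was Bcl11a, a zinc-finger factor, at 25.5 ± 10.5 against 55.8 ± 12.6 CPM. The 15 partners of bHLH factors and co-repressors of Insm1 had 7 fold changes above 0, 8 below and 0 past the threshold, with a median of -0.01 (-0.16 by library size alone). Among them Rcor2, a co-repressor that is also in the first list, stood at 5.34 ± 1.76 against 9.87 ± 1.44 CPM.

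Proneural bHLH factors bind E-boxes, and the 250 bases before the annotated start of each gene (RefSeq, GRCm38.p6) were searched for CAGCTG and for CAGATG on both strands. Entries were found for 7 of the 9 genes, without Lgr5 and Insm1. CAGCTG occurred once each in Hes6 and Sox11 and CAGATG once in Nhlh1. Among 27025 promoters, 12.8% hold the first and 14.5% the second. The 3 windows are shown because they hold all the matches found, 1 in Hes6 and 2 in genes that were near 0 in KD-2, with the E-box in capitals and 10 bases on each side (all on the minus strand: Hes6 at chr1:91414194-91414219, Sox11 at chr12:27342913-27342938, Nhlh1 at chr1:172057784-172057809).
Hes6: gaagcggctgCAGCTGccaactgtca
Sox11: gggacacgcgCAGCTGtgcgcactcg
Nhlh1: gcatggagaaCAGATGtccctgctcc
The matches begin 171, 210 and 203 bases before the start. CAGCTG reads the same on both strands, and the complement of CAGATG is CATCTG. Neurog1, Neurod1, Kit and Ezh2 held neither in this window. The RefSeq start differs from the edge of the gene span given above for some genes. The window of Ezh2 lay inside its span, and those of Neurod1 and Kit lay partly inside theirs.

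For each of the 9 genes, the 3 genes with the most similar pattern over the 6 libraries were found by Pearson's r of log2 CPM among 17032 genes with a mean of at least 1 CPM. With 6 points that share their library composition, every gene has close neighbours, and r is given as a description. For Nhlh1 they were led by Aox2 and Prss33 (r = 0.999 each), for Insm1 by the olfactory receptor gene Olfr53 and the axon guidance gene Dpysl5 (0.999 each), and Olfr53 was among the 3 of both. Neurod1 was nearest to Olfr984 (0.999), with 0 CPM in KD-2 for both and the highest value in NC-1 (13.8 CPM for Olfr984). Sox11 was nearest to Elfn1 (0.999) and Neurog1 to Agbl4 (0.998). Of the genes that KD-2 kept, Kit was nearest to Stap2 (0.999), at 32.4, 65.6 and 31.9 CPM in KD and 14.2, 25.8 and 31.7 in NC. Hes6 was nearest to Ttll9 (0.988), Ezh2 to Syt12 (0.986) and Lgr5 to Dchs1 (0.982). Among the 9, r between Insm1 and Nhlh1 was 0.999 over 6 libraries and 0.982 over the 5 without KD-2, while that between Neurog1 and Neurod1 was 0.92 and 0.541.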

How the data were processed

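Poly(A) RNA of the MOE was sequenced in 3 KD and 3 NC libraries, grouped by sample title. Per the labels' protocols, libraries were made from Trizol RNA with an NEBNext Ultra kit. The submitters' processing notes name HTSeq 0.6.0, DESeq, DESeq2, HISAT2 2.1.0, TopHat2, Bowtie2 2.2.3 and the build GRCm38, with no role or order. The sources used here give neither strand setting nor annotation. The authors deposited raw read counts per gene. Their table also holds, per the file headers, a mean signal over the 6 libraries, which is the size-factor-scaled count, and a log2 fold change with its unadjusted p-value per gene.

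The test across genes was that of edgeR 4.0.16 (R 4.3.3) on counts: TMM factors, default filter, quasi-likelihood test without covariate, two-sided, Benjamini-Hochberg adjustment over 18444 genes, threshold 0.05. DESeq2 1.42.0 and limma-voom (limma 3.58.1) were alternatives; DESeq2 gave no adjusted p for 8578 genes. Scripts were tested on simulated counts. Ratios used exact permutation tests, adjusted over all 14; some are not reported here. The biological coefficient of variation was 40.9%. 25 symbols that a spreadsheet had changed were restored by gene ID.

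The members and lists were chosen with earlier results of these data known. The rule for named genes took the 9 members, 6 fixed genes and 3 per list with the smallest p, not all of which are printed. Lhx2, Ebf2, Nhlh2, Sox2, Pax6, Kitl, Eed, Suz12, Ezh1, Lgr4, Lgr6, Axin2, Id1, Id2, Cyp2g1 and single mast cell and melanocyte markers, and the grouping of Neurog1, Neurod1, Nhlh1, Insm1 and Sox11 as 5 lineage factors, were added after values were seen.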

Additional observations from a re-analysis of the deposited data

How the results depend on the processing

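Tried were other scalings, no filter, DESeq2, limma-voom, each library left out, KD-2 and NC-1 left out together, the replicate block and the mature neuron covariate. In all of them 0 of the 9 genes passed. Over all genes, 0 passed except with DESeq2 (400: 134 higher, 266 lower) and with KD-2 and NC-1 left out together (3, all higher). Of 126 alternative fold changes of the 9 genes 118 kept their direction. Reversed were Neurog1 (0.16), Neurod1 (1.24), Insm1 (0.46), Sox11 (0.61), Nhlh1 (0.82) and Ezh2 (0.22) with the covariate, and Ezh2 without KD-2 (0.11; -0.19 to 0.11 with 1 library left out) and without KD-2 and NC-1 (0.16). The cause was not tested. Of 126 alternative ratio differences 12 reversed. Neurod1/Gap43 was 0.21 with an offset of 1 count, and ran from -0.38 to 0.21 with 1 library left out; Neurod1/Neurog1 ran from -1.85 to 0.21, Nhlh1/Neurod1 from -0.49 to 0.01, Nhlh1/Gap43 from -0.41 to 0.05, Insm1/Neurod1 from 0.06 to 0.95 and Sox11/Neurod1 from 0.19 to 1.08. Without KD-2 and NC-1 the differences were 0.5 for Neurod1/Neurog1, -0.33 for Insm1/Neurod1, -0.04 for Sox11/Neurod1, 0.36 for Neurod1/Gap43 and 0.03 for Nhlh1/Gap43. Deviations of same-numbered libraries from their group means had r of 0.305, 0.101 and -0.257, and those of other pairs ran from -0.355 to 0.349. With so few libraries, this check cannot tell whether the numbers stand for pairs. With the replicate block the log2 fold changes were -1.86 for Neurog1, -2.09 for Neurod1, 0.6 for Lgr5 and 0.64 for Kit, and 0 genes passed. The low counts of Neurog1, and 0 to 12 counts of the 5 lineage factors in KD-2, limit what these libraries can show.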
